A study of Mus musculus with 4 samples.

Results

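Proximal regions were merged ATAC-seq regions that lay near a gene start without covering it. Peak summits of 4 lists were extended by 250 bp on both sides and overlapping intervals were merged, which gave 74669 regions. A region was proximal when its summit nearest to any GENCODE M1 transcript start lay more than 1 kb and at most 10 kb from that start, and when it overlapped no coding exon. By this definition 15184 of the 74669 regions were proximal. They were compared with 18510 promoter regions (a summit at most 1 kb from a start) and with 29875 distal regions (more than 10 kb and at most 100 kb away, no coding exon).

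Sequence within a few kilobases of a gene start can hold enhancers, insulators, unannotated or alternative promoters and the edges of broad open promoters. Enhancers bind transcription factors and can act on a start from either side, inside an intron or outside the gene, whereas a core promoter lies at the start itself and in mammals is often rich in CpG dinucleotides. In the limb bud, many regulatory elements lie far from their genes, so that elements close to a start make up only a part of the regulatory sequence. ATAC-seq uses the Tn5 transposase to cut and tag open chromatin, and a peak summit marks where such cuts pile up.

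Limb cells came from mouse embryos at E11.5 of strain c57bl6.J X 129S6.sv, with forelimb and hindlimb given together as the tissue. All cells were fixed with PFA before transposition. Of the 4 libraries, 2 carried a stop cassette insertion (genotype Mutant) and 2 were wild type. The study concerned Maenli, a lncRNA locus, and engrailed-1 (En1) in limb malformation, and the comparison asks whether open chromatin differs in embryos with the cassette. The labels give neither the insertion site nor the number of embryos, and the peak names of both wild-type lists carry a shared replicate number, so the spread within a genotype may be technical.

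The lists held 51701 to 107827 summits, and those of the stop cassette genotype were the 2 longest. They give no read counts, so the depth of the libraries is unknown. Each peak carries the authors' score, which behaves as −log10 of a q-value. Scores depend on depth and were therefore ranked within their list, from 0 for the weakest to 100 for the strongest peak, and a region took the percentile of its strongest peak in that list. Between 88.4% and 94.9% of the peaks of a list shared their score with another peak, and the most frequent score alone took 4.56% to 5.61% of a list. Medians that fall on such a score are tied, so a difference of 0 between medians can hide a small shift. Starts of limb mesenchyme factors were open (a summit within 1 kb) for 38 to 44 of 47 genes in the 4 lists, against 0 to 2 of 12 liver genes. Open starts were not particular to limb genes: 6 to 9 of 11 neural genes and 7 to 8 of 11 blood genes had one. Limb ectoderm genes had one for 6 to 11 of 17, and protein-coding genes at large in 59.1% to 64.5% of cases.

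The sequences below show what the proximal regions look like at their strongest summit. They are the strongest region upstream and the strongest downstream of a start that all 4 lists held, the strongest downstream of a limb mesenchyme gene, and the strongest on each side of limb signalling genes, each with no annotated exon. Each window takes 100 bases on both sides of a summit from the plus strand of mm9 (NCBIM37), and capitals mark matches to any of 10 short motifs searched on both strands. The motifs were GGGCGG (GC box), CCAAT (the box of that name), CCGGAAG (ETS factors), CACNAGNGG (part of the CTCF core), TGANTCA (AP-1), TAATTA (homeodomain factors), CAATAAA (posterior Hox factors), TGACAG (Meis and Tgif factors), CAGCTG (E-box) and GGAATG (TEAD factors). The first sequence holds no match.
3110052M02Rik, upstream, chr17:21787424-21787624: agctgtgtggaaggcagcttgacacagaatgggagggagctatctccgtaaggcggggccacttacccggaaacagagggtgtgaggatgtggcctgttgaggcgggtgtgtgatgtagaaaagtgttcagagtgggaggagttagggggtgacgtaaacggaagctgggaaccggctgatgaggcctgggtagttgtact
Irs1, downstream, chr1:82279862-82280062: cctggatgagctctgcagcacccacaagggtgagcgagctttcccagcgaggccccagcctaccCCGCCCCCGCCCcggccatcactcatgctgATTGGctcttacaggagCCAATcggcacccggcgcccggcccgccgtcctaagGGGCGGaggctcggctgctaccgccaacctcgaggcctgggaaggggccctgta
Prrx2, downstream, chr2:30708535-30708735: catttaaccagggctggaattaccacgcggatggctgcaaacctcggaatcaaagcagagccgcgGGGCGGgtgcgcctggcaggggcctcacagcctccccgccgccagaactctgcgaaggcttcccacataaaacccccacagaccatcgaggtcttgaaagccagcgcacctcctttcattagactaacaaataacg
Ptch1, upstream, chr13:63669244-63669444: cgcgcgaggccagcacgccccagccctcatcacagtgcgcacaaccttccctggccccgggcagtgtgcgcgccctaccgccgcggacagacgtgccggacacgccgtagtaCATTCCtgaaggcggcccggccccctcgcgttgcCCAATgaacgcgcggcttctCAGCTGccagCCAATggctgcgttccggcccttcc
Axin2, downstream, chr11:108808785-108808985: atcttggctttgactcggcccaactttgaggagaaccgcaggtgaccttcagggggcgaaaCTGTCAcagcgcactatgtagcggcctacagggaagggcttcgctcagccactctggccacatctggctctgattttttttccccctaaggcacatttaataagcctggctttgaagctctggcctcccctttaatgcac

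The Irs1 window carried 3 GC boxes and 2 CCAAT boxes and was 69.7% G and C. The Ptch1 window was 70.6% G and C and held 2 CCAAT boxes, an E-box and a TEAD match. The Axin2 window was 53.7% G and C and had a Meis and Tgif match. The sequence features of all proximal regions follow further on.

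Stop cassette replicate 1 held 9368 of the 15184 proximal regions and stop cassette replicate 2 held 12176. Wild-type replicate 1 held 4292 and wild-type replicate 2 held 6438. Both stop cassette lists therefore held more of them than both wild-type lists, with means of 10772 ± 1986 and 5365 ± 1517 regions (SD, n = 2 each; exact permutation p = 0.333, two-sided, the smallest that 2 against 2 lists allow). Proximal summits made up 16.0% of the peaks in stop cassette replicate 1, with a 95% Wilson interval of 15.8% to 16.3%, and 15.5% in its replicate 2, with 15.3% to 15.7%. For wild-type replicate 1 the share was 10.6% (interval 10.3% to 10.8%), and for replicate 2 it was 12.3% (interval 12.0% to 12.5%). These intervals cover counting error only. The genotype means were 15.8% ± 0.392 and 11.4% ± 1.20, a difference of 4.36 percentage points (SD, n = 2 each, exact permutation p = 0.333).

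List length alone can move such a share. With each list cut to its 51701 highest-scoring peaks, the proximal share was 15.5% and 13.9% in the stop cassette lists and 10.8% and 11.7% in the wild-type lists. The difference was then 3.42 percentage points, and the genotypes still did not overlap (exact permutation p = 0.333). Promoter peaks showed the opposite order at equal length, with 54.2% and 49.8% in the stop cassette lists against 58.6% and 56.2% in wild type. Shares of distal peaks were 23.0% and 26.7% against 22.3% and 23.3%. Depth and background of the libraries are not known, and where they differ between the genotypes they cannot be told apart from genotype.

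All 4 lists held 2919 of the proximal regions, or 19.2%, against 32.0% of all regions. A single list held 6262 of them (41.2%), against 35.4% of all regions. Stop cassette replicate 2 alone held 3456 (22.8%), close to its 22.1% of all regions. Stop cassette replicate 1 alone held 2063 (13.6%), against 8.22% of all regions. Regions in all 4 lists ranked higher, with a median mean percentile of 63.1, than those in 1 list, at 25.9. Promoter regions were held by all 4 lists in 71.5% of cases and distal regions in 19.1%, so in this respect the proximal regions lay close to the distal ones. Stop cassette replicate 1 held a larger share of proximal than of distal regions, by 10.8 percentage points, whereas the differences were -3.20, -1.76 and -2.63 points in the other 3 lists (exact sign-flip permutation p = 1.00 over the 4 lists).

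**Figure D1:**
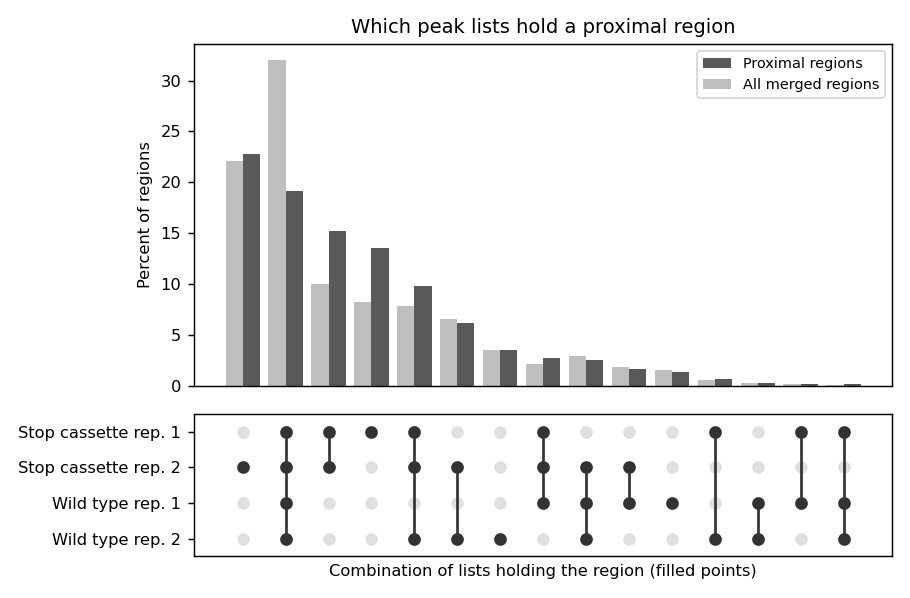
Percent of regions (vertical axis) for each combination of lists that holds them, shown by the filled points, for proximal regions (dark) and all merged regions (light). Proximal regions were in all 4 lists in 19.2% of cases against 32.0% of all regions, and were stop cassette-specific in 15.2% against 10%.

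A region was called stop cassette-specific when it was held in both replicates of that genotype and in no wild-type replicate, and wild type-specific in the reverse case. Of the proximal regions 2307 (15.2%) were stop cassette-specific, where the share over all regions was 10%. Only 41 (0.270%) were wild type-specific, against 0.313% of all regions. Distal regions were stop cassette-specific in 10.8% of cases and promoter regions in 4.93%. At equal list length, 895 of 10094 proximal regions (8.87%) were stop cassette-specific, where all regions gave 5.21%. The wild type-specific count was then 226 (2.24%), where all regions also gave 2.24%. The stop cassette-specific share thus stayed above that of all regions at equal length, and the wild type-specific share was level with it. Leaving out single lists moved these counts, because a single list then stands for its genotype. The count specific to the stop cassette was 5916 without its replicate 1, 4493 without its replicate 2 and 3817 without wild-type replicate 2. For regions specific to wild type, leaving out its replicate 1 or its replicate 2 gave 576 or 256, and leaving out stop cassette replicate 1 or 2 gave 68 or 443. The proximal regions then numbered 13383 and 12026 without stop cassette replicates 1 and 2, and 15019 and 14752 without wild-type replicates 1 and 2. No share over all regions was computed with a list left out, so these counts do not single out proximal regions.

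Proximal regions lay on both sides of their starts in nearly equal numbers. Upstream of the nearest start lay 7457 regions and downstream 7727, or 49.1% and 50.9%. The sequence that could hold such a region (1 to 10 kb from its nearest start and at least 250 bp from a coding exon) measured 272 Mb upstream and 274 Mb downstream. The density was 27.4 regions per Mb upstream and 28.2 per Mb downstream. Among regions held by all 4 lists, 51.9% were upstream, and among those held by 1 list 48.1%.

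In the single lists, upstream regions made up 49.6% (95% Wilson interval 48.6% to 50.6%) and 49.2% (48.4% to 50.1%) of the proximal regions with the stop cassette. In wild type they made up 51.1% (49.6% to 52.6%) and 50.7% (49.5% to 52.0%). The genotype means of 49.4% ± 0.270 and 50.9% ± 0.275 differed by -1.49 percentage points (SD, n = 2 each; exact permutation p = 0.333). At equal list length the difference was -0.432 points. Upstream regions were held slightly more often than downstream ones in each of the 4 lists, by 0.428 to 2.75 percentage points (exact sign-flip permutation p = 0.125, the smallest that 4 lists allow).

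Density was highest in the kilobase next to the promoter zone and otherwise nearly flat. Between 1 and 2 kb it was 30.6 regions per Mb upstream and 33.5 downstream. Between 4 and 5 kb it was 26.1 upstream and 24.5 downstream, and between 9 and 10 kb it was 27.7 and 27.4. In all 4 lists, the bin from 1 to 2 kb was the densest on each side. The median percentile within 2 kb minus that beyond 8 kb was 0, 0, 3.70 and 0.101 points in the 4 lists (exact sign-flip permutation p = 0.500). Upstream alone it was 3.98, -0.613, 7.44 and 2.51 points, above 0 in 3 of 4 lists (mean 3.33 ± 3.34, SD; exact sign-flip permutation p = 0.250). Downstream alone it was -0.860, 0, 3.18 and 1.16 points (mean 0.870 ± 1.75, SD; exact sign-flip permutation p = 0.500). Whether the sides differ in this was not tested.

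**Figure D2:**
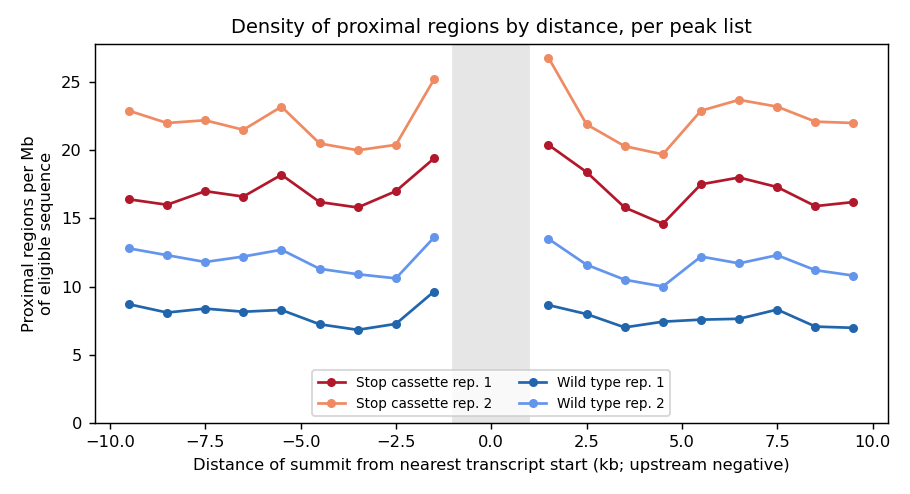
Proximal regions per Mb of eligible sequence (vertical axis) in bins of 1 kb by distance from the nearest transcript start (horizontal axis, upstream negative), with a line for each peak list; the shaded band marks the promoter zone. Every list is densest between 1 and 2 kb on each side, and both stop cassette lists lie above both wild-type lists in every bin.

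Proximal regions ranked in the middle of their lists. Their median percentile was 49.1 in stop cassette replicate 1 and 50.5 in replicate 2, and 40.8 and 46.7 in wild-type replicates 1 and 2. The quartiles ran from 25.7 to 70.4 in stop cassette replicate 1 and from 16.0 to 63.2 in wild-type replicate 1. Promoter medians were far higher, at 85.4, 88.5, 82.0 and 85.2. The differences of proximal from promoter medians were -36.3, -38.0, -41.2 and -38.5 points in the 4 lists (mean difference -38.5 ± 2.02, SD, n = 4; exact sign-flip permutation p = 0.125). A promoter region merged a median of 8 summits and a proximal region 2, so the strongest peak was taken over more summits there; with each peak counted on its own the mean difference was -20.4.

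Distal medians were 43.4, 47.8, 37.6 and 44.1. Proximal regions thus ranked 5.65, 2.70, 3.18 and 2.66 points above distal regions, in 4 of 4 lists (mean difference 3.55 ± 1.43, SD; exact sign-flip permutation p = 0.125). With only peaks above the pooled median score the mean difference was 1.95 points and the order no longer held in all 4 lists (exact sign-flip permutation p = 0.250). It was 1.77 points with starts of protein-coding genes only, and 5.55 with each peak on its own. Among the 10% strongest peaks of their list stood 3.84% and 4.46% of the proximal regions with the stop cassette and 2.49% and 3.40% in wild type. The genotype means of the median percentile, 49.8 ± 1.00 and 43.8 ± 4.22, differed by 6.01 points (SD, n = 2 each; exact permutation p = 0.333). That difference was 1.38 points at equal list length, where the genotypes overlapped (exact permutation p = 0.667), and 3.06 points without wild-type replicate 1.

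**Figure D3:**
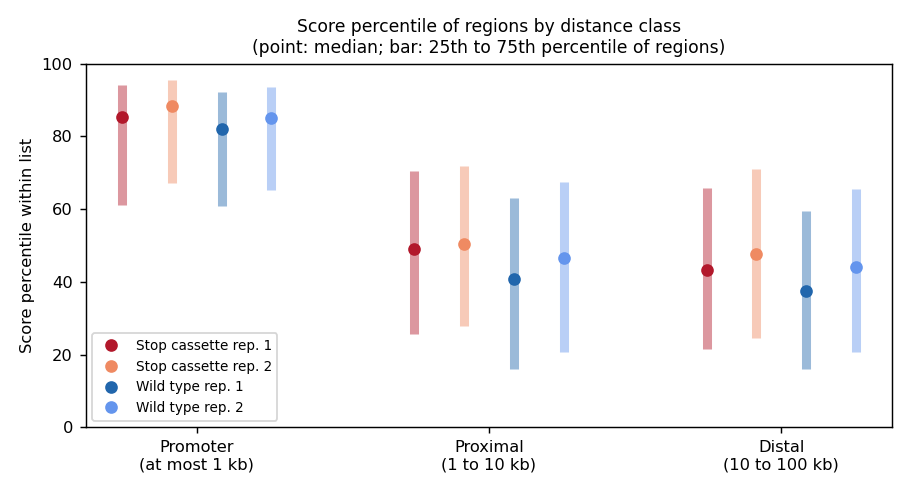
Score percentile within a list (vertical axis) for promoter, proximal and distal regions, with a point at the median and a bar from the 25th to the 75th percentile of the regions for each peak list. Proximal medians between 40.8 and 50.5 lie far below the promoter medians and 2.66 to 5.65 points above the distal medians of the same list.

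Upstream regions ranked above downstream ones by 1.18, 1.95, 2.96 and 1.58 points in the 4 lists (mean difference 1.92 ± 0.765, SD, n = 4; exact sign-flip permutation p = 0.125). The mean difference was 1.41 points for regions at 2 to 10 kb, and 1.67 with summits extended by 100 bp. In both settings the order no longer held in all 4 lists (exact sign-flip permutation p = 0.250 each). The sides differed in what they overlap. Upstream, 58.6% of the regions were intergenic and 39.6% intronic by their summit, and downstream 27.1% were intergenic and 67.0% intronic. Within intergenic regions the upstream minus downstream difference was 2.16, 0.129, 0 and 0 points, and within introns 0.740, 0, -1.67 and -1.15 points (exact sign-flip permutation p = 0.500 for each). Several of these medians fell on a tied score (46.6, 50.7 and 47.8 on both sides), where a shift of the size seen over all regions cannot be read.

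Intergenic regions ranked above intronic ones on both sides. The 6465 intergenic regions had median percentiles of 52.3 and 55.0 in the stop cassette lists and 46.6 and 50.7 in wild type. The 8133 intronic regions had 46.9, 47.8, 36.6 and 42.2. The differences of 5.38, 7.19, 10.1 and 8.44 points (mean difference 7.77 ± 1.98, SD, n = 4; exact sign-flip permutation p = 0.125) were of like size upstream (mean 8.30) and downstream (mean 7.21). All 4 lists held 22.9% of the intergenic and 16.3% of the intronic regions. Few summits lay in a UTR (363) or a non-coding exon (223). This split by annotation was chosen after values had been seen, as 1 of 11 such comparisons, and the smallest p adjusted over them was 0.196 (exact sign-flip permutation, Benjamini-Hochberg).

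Most proximal regions resembled distal regions in base composition, and a minority resembled promoters. The median share of G and C in 501 bp around the strongest summit was 48.5% for proximal, 46.7% for distal and 60.9% for promoter regions. A window was called CpG-rich when G and C exceeded 50% and the observed to expected CpG ratio exceeded 0.6. This held for 691 proximal regions (4.55%), against 1.99% of distal and 61.9% of promoter regions. The CpG-rich proximal regions ranked high, with median percentiles of 70.8, 77.1, 68.5 and 73.0 in the 4 lists, against 49.1, 47.8, 37.5 and 44.4 for the others. They were higher in 4 of 4 lists (mean difference 27.7 ± 4.07, SD; exact sign-flip permutation p = 0.125, and 0.214 after Benjamini-Hochberg adjustment over 12 features). All 4 lists held 59.0% of them, and 7.09% were stop cassette-specific against 15.6% of the rest.

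RefSeq offered a separate view of starts. For each RefSeq start on GRCm38, 60 bases around it were looked up as an exact sequence in the mm9 sequence within 1 kb of the summits of a region, with no use of coordinates. Such a start was found at 676 proximal regions (4.45%), at 4.08% of distal regions and at 68.1% of promoter regions. Only 129 of the 676 were also CpG-rich. Regions with a RefSeq start ranked above the rest by 12.8, 16.8, 19.2 and 12.5 points (exact sign-flip permutation p = 0.125). Without these regions on either side, proximal regions still ranked above distal ones in 4 of 4 lists, by a mean of 4.01 points. Without CpG-rich regions the mean was 3.67 points, but stop cassette replicate 2 showed a difference of 0. Among proximal regions without a RefSeq start, upstream minus downstream was 0, 2.97, 1.68 and 0.588 points (exact sign-flip permutation p = 0.250). Among those not CpG-rich, it was above 0 in 4 of 4 lists, with a mean of 1.34 points.

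Motif matches within 100 bp of the strongest summit were counted as letters only, which are neither binding sites nor causes. GC boxes were found in 12.8% of proximal regions, 8.92% of distal regions and 53.3% of promoters. The part of the CTCF core was found in 9.51% of proximal, 7.61% of distal and 4.11% of promoter regions. AP-1 letters were found in 8.44%, 7.58% and 3.42%, and homeodomain letters in 4.76%, 6.89% and 1.37%. Over the 3 classes together, these 4 motifs were found in 22.8%, 7.04%, 6.57% and 4.77% of regions.

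Rank within the proximal regions moved with some of these motifs in all 4 lists. Regions with a GC box ranked higher than those without in 4 of 4 lists (mean difference 14.7 ± 2.28, SD; exact sign-flip permutation p = 0.125), and still by a mean of 10.1 points once CpG-rich regions were left out. Regions with ETS letters, 277 in all, ranked 15.0 to 22.2 points higher. Those with homeodomain letters ranked lower by a mean difference of -9.68 ± 2.14, and those with posterior Hox letters by -7.54 ± 3.29 (SD, n = 4; exact sign-flip permutation p = 0.125 each, 0.214 adjusted). AP-1 letters went with no single direction: the differences were 4.90 and 1.84 points in the stop cassette lists and -4.35 and -1.53 in wild type. Among stop cassette-specific proximal regions, AP-1 letters were found in 11.6% and the part of the CTCF core in 11.7%. All proximal regions gave 8.44% and 9.51%, and the 41 wild type-specific ones 7.32% and 14.6%, in the same order. The share of G and C moves with these motifs as well, and its part in the ranks was not tested beyond leaving out CpG-rich regions.

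**Figure D4:**
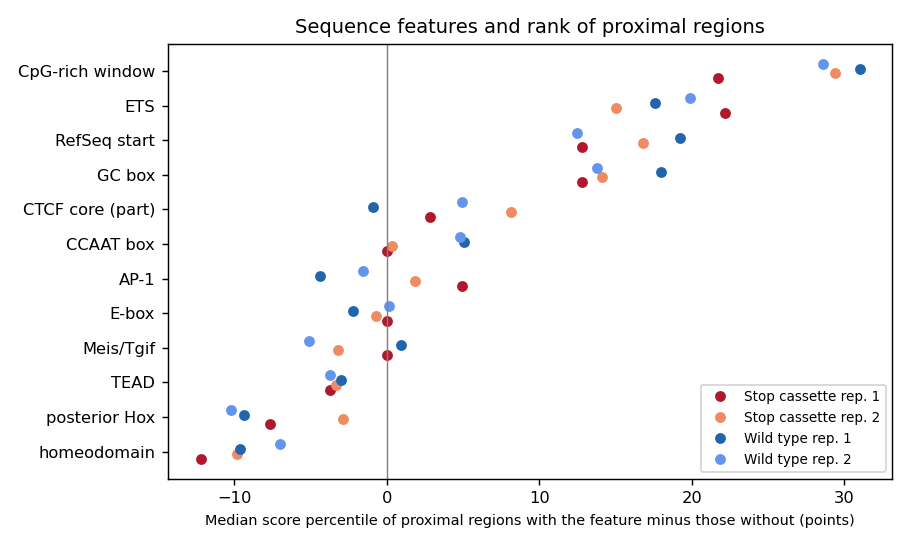
Difference in median score percentile (horizontal axis, in points) between proximal regions with and without each sequence feature (vertical axis), with a point for each peak list. CpG-rich windows, ETS letters, RefSeq starts and GC boxes lie above 0 in all 4 lists, and TEAD, posterior Hox and homeodomain letters lie below 0 in all 4.

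The strongest proximal regions were mostly CpG-rich and intergenic. Among the 160 regions with a mean percentile of at least 90 over the lists that held them, 55.0% were CpG-rich, 62.5% lay upstream, 76.2% were intergenic and 33.8% held a RefSeq start. Below a mean percentile of 25, the 4048 regions were CpG-rich in 2.27% of cases, upstream in 47.2% and intergenic in 38.2%. Homeodomain letters went the other way, with 0.625% in the former and 6.25% in the latter.

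The top upstream region that all 4 lists held spanned bases 21786780 to 21788051 of chromosome 17. It was intergenic, and a start of 3110052M02Rik (ENSMUSG00000035868.8) followed 6748 bp away. It ranked at the 99.9 and 99.9 percentiles with the stop cassette and at 98.5 and 99.9 in wild type. A RefSeq start of Zfp983, a zinc finger gene, matched there. The next lay 9951 bp upstream of a start of Aacs, which encodes acetoacetyl-CoA synthetase, at percentiles from 97.9 to 99.9, and was CpG-rich with no RefSeq start. The third lay 1451 bp upstream of a GENCODE start of Cpeb4, an RNA-binding regulator of translation, at percentiles from 98.2 to 99.5, and held a RefSeq start of Cpeb4 itself.

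Downstream, the first region lay on chromosome 1 from 82279425 to 82280871, in an intron 7370 bp downstream of a start of Irs1 (ENSMUSG00000055980.2), the adaptor that insulin and IGF receptors phosphorylate. It ranked at 99.7 and 99.5 with the stop cassette and at 99.7 and 99.5 in wild type. The second lay 4470 bp downstream of a start of AC134910.1 at percentiles from 99.2 to 99.7, with a RefSeq start of 1700096K18Rik. The third lay in an intron of an annotated transcript 8545 bp downstream of a start of Mrps27, a mitochondrial ribosomal protein gene. It ranked at 100 and 100 with the stop cassette and at 97.3 and 97.5 in wild type. All of these downstream regions were CpG-rich.

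The highest-ranked stop cassette-specific proximal region lay on chromosome 8 from 23319426 to 23320432, 7283 bp upstream of a start of Vps36, which encodes an ESCRT-II subunit. It ranked at 93.2 and 85.6, with 16124 bp to the closest summit of a wild-type list. The next lay on chromosome 2 from 112350210 to 112350718, 9434 bp downstream of a small RNA annotated as SNORA11, at 90.9 and 85.5. The third lay on chromosome 19 from 17481223 to 17482239, 9546 bp downstream of a start of Rfk, the riboflavin kinase gene, at 87.1 and 87.8. None of these 3 was CpG-rich or held a RefSeq start, and all 3 kept their pattern at equal list length. AP-1 letters were found in the windows at Vps36 and Rfk, the CCAAT box at SNORA11 and Rfk, and a GC box at SNORA11.

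Of the wild type-specific regions, the first lay 8045 bp upstream of a GENCODE start of Zfp78, a zinc finger gene, at 93.4 and 86.9. It was CpG-rich and held a RefSeq start of Zfp78, and the nearest stop cassette summit was 831 bp away. The second lay on chromosome 9 from 3021950 to 3022451 near Gm10718, at 77.0 and 67.0, with a stop cassette summit 2272 bp away. The third lay on chromosome 11 from 11031609 to 11032190 near a 5S_rRNA annotation, at 58.1 and 60.9. These regions were named by their rank, and no test applies to a single region.

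Proximal regions were spread over many genes. Of 22367 protein-coding genes, 6941 (31.0%) were the nearest gene of at least 1 proximal region, and 1822 (8.15%) of at least 1 that all 4 lists held. Most had a single region (4473 genes), 899 had 3 or more and the most for a gene was 11. Where the nearest start was that of a protein-coding gene, the gene had an open start in the same list for 79.4% and 79.7% of the regions with the stop cassette and for 69.9% and 74.8% in wild type. Over all protein-coding genes, 59.1% to 64.5% had an open start. The median percentile beside an open start minus that beside the others was 0, -1.27, -1.19 and -6.36 points (exact sign-flip permutation p = 0.250).

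Genes with most proximal regions in all 4 lists were led by Ddc, which encodes DOPA decarboxylase, with 4 such regions, all downstream of starts, among 9 in any list. Itsn1, an endocytic scaffold gene, had 3 of 10, and its strongest region ranked at 99.1 and 97.4 with the stop cassette and at 78.0 and 91.2 in wild type. Sp8, Lpin2 and Macf1 had 3 each. Other genes, Prrx2 among them, also had 3, and among these ties the genes with the strongest regions were taken. Lpin2 encodes a phosphatidate phosphatase and Macf1 a linker of actin and microtubules. The strongest Macf1 region, at percentiles from 79.7 to 90.8, held a RefSeq start of D830031N03Rik.

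Limb genes had more proximal regions than protein-coding genes at large. Of 47 limb mesenchyme factors, 30 (63.8%) had at least 1 and 12 (25.5%) had 1 in all 4 lists, against 31.0% and 8.15% of all protein-coding genes. Of 45 limb signalling genes, 34 (75.6%) and 18 (40.0%) did. Per Mb of eligible sequence, these lists held 69.6 and 66.6 regions, against 29.6 for all protein-coding genes. They had higher densities than protein-coding genes at large in each of the 4 lists. Wild-type replicate 1, for example, had 22.0 and 28.1 per Mb against 8.11. Limb regions did not all rank higher. The median mean percentile was 34.7 at mesenchyme factors, 41.9 at signalling genes and 27.4 at limb ectoderm genes, against 40.6 at all protein-coding genes.

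Over any list, the genes of 5 other sets also exceeded 29.6 per Mb, and liver genes did not. Neural factors, 11 genes annotated, had 17 regions (121 per Mb). Stop cassette replicates 1 and 2 held 64.0 and 99.6 per Mb, and each wild-type list 28.4. Neural regions in all 4 lists came to 21.3 per Mb, against 17.4 at limb mesenchyme factors and 19.8 at limb signalling genes. Muscle precursor genes had 12 regions at 9 of 12 genes, blood genes 8 at 6 of 11, and endothelial genes 11 at 7 of 12, with 0 of these 11 in wild-type replicate 1 and 0 in all 4 lists. Limb ectoderm genes had 16 regions at 9 of 17 genes. Liver genes had 2 regions at 2 of 12 genes, or 14.3 per Mb. These counts are small, the gene lists were chosen with earlier results of these data known, and in such mixed tissue fewer open cells and less open chromatin per cell cannot be told apart.

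**Figure D5:**
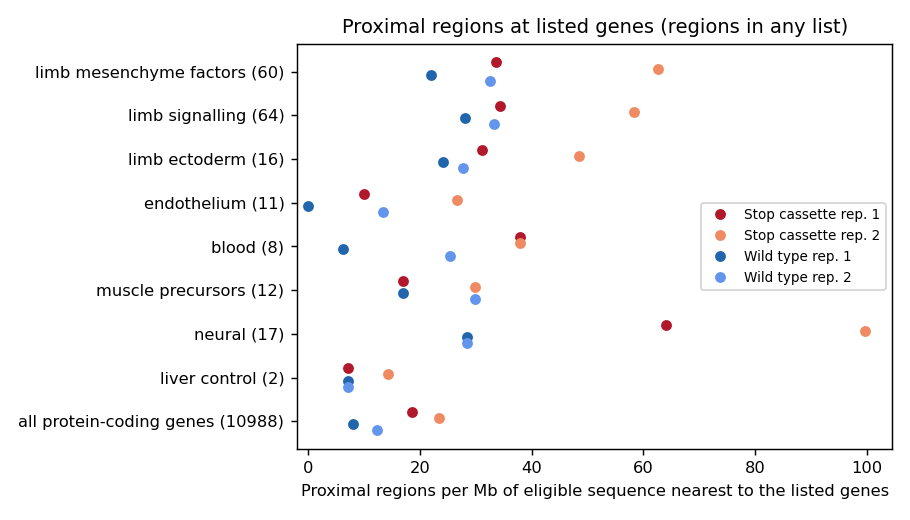
Proximal regions per Mb of eligible sequence nearest to the genes of each list (horizontal axis), with a point for each peak list; the number beside each name counts the regions in any list. Limb lists lie above all protein-coding genes in each peak list, and the short neural list lies highest in both stop cassette lists and in wild-type replicate 1.

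Among limb mesenchyme factors, Prrx2, a homeobox gene of limb mesenchyme, had 3 proximal regions in all 4 lists. The strongest, in an intron 6497 bp upstream of a start, ranked at 68.1 and 68.1 with the stop cassette and at 53.7 and 78.2 in wild type. Etv5, an ETS factor that responds to FGF signals, had 2, and the stronger ranked at 29.4 and 78.9 with the stop cassette and at 31.7 and 89.0 in wild type. Replicate 2 of each genotype was thus far above replicate 1 there.

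Dusp6, Ptch1 and Axin2 led the signalling list. Dusp6 encodes a phosphatase of ERK that FGF signalling induces, and its 2 regions had mean percentiles of 63.5 and 76.1. The stronger lay 5787 bp downstream of a start, at 70.1 and 78.1 with the stop cassette and at 69.5 and 86.8 in wild type. Ptch1, the Hedgehog receptor, had a CpG-rich region 2516 bp upstream of a start, at 79.0 and 82.0 against 69.9 and 79.9 in wild type. Axin2, a Wnt target and negative regulator of the Wnt pathway, had a region 3950 bp downstream, at 61.6 and 90.3 against 75.5 and 80.3. In each of these regions the percentiles of the genotypes overlapped.

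Sp8, a zinc finger factor of the limb ectoderm, had 3 regions in all 4 lists, and the strongest lay 7399 bp downstream of the start, at 89.0 and 96.8 with the stop cassette and 91.2 and 88.4 in wild type. Mef2c, a MADS-box factor of muscle and other tissues, had a region at 87.0 and 94.3 against 87.0 and 91.5. Neurog2, a neurogenic factor, had 2 regions with mean percentiles of 72.9 and 73.7. Mean percentiles below 50 were found at genes of several lists. Among the limb genes named here, such regions in all 4 lists included 1 at Sp8 (23.5), 1 at En1 (36.1) and 1 at Etv5 (38.4). Others were found at Tal1, a blood factor (47.2 and 68.6 against 35.1 and 30.5 in wild type), at Pax6, an eye and neural factor (3.00 and 58.9 against 7.31 and 12.7), and at Fgg, a liver fibrinogen gene (7.55 and 1.46 against 4.54 and 44.6).

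En1 (ENSMUSG00000058665.7), the dorsoventral patterning gene that the study is about, had 1 proximal region. Bases 122492924 to 122493773 of chromosome 1 made up this intergenic region, 5472 bp upstream of the start, and all 4 lists held it. It ranked at the 52.0 and 43.7 percentiles with the stop cassette and at 19.2 and 29.3 in wild type. Both stop cassette values lay above both wild-type values there. The same order was found in 1297 of the 2919 proximal regions in all 4 lists (44.4%) and in 38.9% of the regions of all classes in all 4 lists, so the order was common. The reverse order was found in 80 of the 2919 (2.74%). These percentiles come from lists of unequal length, and no value at equal length is given for the En1 region. The window around its summit held ETS letters and was just short of the limit for CpG-rich, at a CpG ratio of 0.593. B230209K01Rik, an annotated lincRNA of the same neighbourhood, had 2 proximal regions, at the 34.7 and 14.0 percentiles, both in stop cassette replicate 2 alone.

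Neither limit of the definition marked a large step in the mean percentile over lists. Among regions without a coding exon, the 326 at 1001 to 1100 bp had a median mean percentile of 36.8 and the 338 at 901 to 1000 bp had 39.5. The 142 at 9901 to 10000 bp had 37.8 and the 130 at 10001 to 10100 bp had 39.8. All 4 lists held 16.9%, 18.9%, 18.3% and 16.9% of these, in the same order. Single lists varied more at the upper limit. Medians just inside and just outside it were 36.8 and 46.8 in stop cassette replicate 1, and 47.8 and 50.9 in its replicate 2. In wild type they were 31.7 and 28.0 in replicate 1, and 43.8 and 49.2 in replicate 2. Whether a step is present in a single list was not tested.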

How the data were processed

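ATAC-seq libraries of limb cells were represented by 1 deposited list of peak summits each. The submitters' processing notes name Bowtie2 2.2.6, Picard and build mm9. Per the peak names, duplicate and mitochondrial reads were removed at a mapping quality of 30. The peak caller, any read shift for the transposase and any control track are not given in the sources used here. The value of each peak as deposited is read as −log10 of a q-value, since its lowest value is 1.30 to 1.31. No summit lay beyond the end of the 21 chromosomes of NCBIM37, which is mm9. Summits on unplaced sequences (0.102% to 0.172% per list) could not be annotated and were in no class.

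Summits were extended by 250 bp and merged, and the summit nearest to any GENCODE M1 start set the distance, side and gene (pandas 2.3.3, numpy 2.4.6, scipy 1.17.1). Genotypes were compared with exact permutation tests over lists, and classes with exact sign-flip permutation tests over 4 lists, all two-sided. Their smallest p-values are 0.333 and 0.125, so no test could reach 0.05. The classes, sides and genotype patterns were tested on simulated lists.

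The regions named are the 3 strongest per side in all 4 lists, the 3 strongest per genotype pattern, the strongest region of up to 3 genes per gene list and of 5 genes overall with most regions in all 4 lists, and all regions of En1 and B230209K01Rik. Some regions that this rule names are not reported here. The regions, gene lists, motifs and tests were chosen with earlier results of these data known. Comparisons by annotation, CpG content and RefSeq start were added after values had been seen.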

Additional observations from a re-analysis of the deposited data

How the results depend on the processing

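The 12 alternatives that kept all 4 lists, and the 4 that left out a list each, gave 132 values, and no difference changed sign; 17 counts of regions moved by over 1.5 times. Keeping a direction is no support here, because no test could reach 0.05. At equal list length, 895 proximal regions were specific to the stop cassette and 226 to wild type, from 2307 and 41; fewer peaks enter by construction. The stricter threshold, a score above 5.83 in all lists, left 1085 regions in all 4 lists (from 2919) and 13 specific to wild type. Summits extended by 50 bp gave 194 regions specific to wild type, and by 100 bp 67. A limit of 5 kb gave 1511 regions in all 4 lists, 1225 specific to the stop cassette and 20 to wild type, because fewer regions enter. Leaving out each list in turn gave 3005 to 4430 regions in all remaining lists (4430 without wild-type replicate 1), 2734 to 5916 specific to the stop cassette and 68 to 576 specific to wild type. Apart from equal length, no share over all regions was computed for these alternatives, so their counts do not single out proximal regions. With the replicate number as a block, the difference in the share of peaks was again 4.36 percentage points (exact permutation p = 0.500, the smallest that 2 pairs allow), and the other genotype differences also kept their values, by construction. Deviations of same-numbered lists correlated at 0.155 over 2919 regions, and 2 pairs do not show that the numbers pair the samples. Differences moved by over 1.5 times as well. Proximal minus promoter went from -38.5 to -20.4 points with single peaks and to -21.1 with 50 bp. Proximal minus distal went from 3.55 to 1.95 (stricter threshold), 1.77 (protein-coding starts), 5.55 (single peaks) and 5.57 (50 bp). Upstream minus downstream went from 1.92 to 3.34, 3.17 and 2.93 points (stricter threshold, protein-coding starts, 5 kb). The genotype difference in median percentile went from 6.01 to 1.38 at equal length and 3.06 without wild-type replicate 1, that in the share of peaks from 4.36 to 2.22 with 5 kb, and that in the upstream share from -1.49 to -0.432 (equal length), -0.757 (50 bp) and -0.771 (5 kb). The cause was not tested. The unknown depth limits each comparison between genotypes.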
